A study of Saccharomyces cerevisiae with 10 samples.

Results

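The genes described are 7 members of the weak organic acid response of the yeast Saccharomyces cerevisiae, PDR12, WAR1, HAA1, TPO2, YGP1, SPI1 and HRK1. They were chosen by gene name from the War1 and Haa1 branches of that response, with earlier results of these data known. They are 7 of 5654 named yeast genes measured. Transcripts were measured by single-colour 3′ expression arrays in strain TMB3500. There were 5 groups of 2 biological replicates, 10 arrays in all. The first group was sampled at the start of the feed (0 h), after aerobic growth on glucose in a batch of 0.7 L at 30 °C and pH 5. The others were sampled after 9 h or 18 h of feeding with either non-detoxified spruce hydrolysate, set to pH 4.7 with NaOH, or glucose, xylose and mannose mixed to resemble the hydrolysate's sugar content. Either feed ran from 0.04 L/h up to 0.1 L/h over 16 h, by which time 1 L had been added, so the 18 h samples were taken after the end of that ramp. Hydrolysate is the liquid obtained by breaking down wood, and left undetoxified it carries acetic acid, furan aldehydes and phenolic compounds besides its sugars. Acid concentrations and culture measurements were not used here. Every group shares the strain, batch medium and temperature, and the labels do not say whether arrays of 1 feed with the same replicate number came from 1 reactor.

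Small organic acids cross the yeast plasma membrane undissociated and release a proton and an anion inside the cell. Lipophilic acids such as sorbate and benzoate act through War1, a zinc cluster activator that switches on PDR12, an ATP-driven exporter of acid anions. Acetic and lactic acids act mainly through Haa1, an activator whose targets include the transporter gene TPO2, the cell wall gene SPI1, the secreted glycoprotein gene YGP1 and the kinase gene HRK1.

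Values are log2 intensities as deposited, after robust multi-array averaging (RMA), which brings the arrays to a common distribution. Differences were tested with limma in a single fit of the 10 arrays, p-values were adjusted over all 5654 genes, and a gene was called under an adjusted p of 0.05. The array also carries 4999 probe sets for another yeast, Schizosaccharomyces pombe, and their 95th percentile, 4.66 to 4.89 by array, served as background. Of all genes, 96.4% exceeded it on every array, as did all 7 members. Replicates correlated across genes at 0.971 (hydrolysate, 9 h) to 0.996 (sugar feed, 18 h). A measure of RNA quality moved with the groups. The mean log2 excess of 3′ over 5′ probe sets of control genes was 0.599 ± 0.0077 (SD, n = 2) for the sugar feed at 18 h and 1.23 ± 0.0523 for hydrolysate at 18 h, with 0.669 to 0.96 in the groups between them. Spike-in control probe sets were brighter at the start (mean 11.68) than in the other groups (10.41 to 10.73).

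Between the feeds, members differed at 18 h and not detectably at 9 h. At 9 h, 0 of the 7 members were called, against 9.67% of all genes (5.77% higher and 3.91% lower). The members' median log2 difference was 0.22, that of TPO2 on the brighter of its 2 probe sets, beside 0.03 for all genes. WAR1 alone had an unadjusted p under 0.05. At 18 h, 3 of 7 were called, PDR12 higher and HAA1 and SPI1 lower with hydrolysate, while 61.9% of all genes were called (31.2% higher and 30.8% lower). The share of members called thus lay below that of all genes. Their median log2 difference was -0.47, again that of TPO2, beside 0.01 for all genes. On its second probe set TPO2 was at 2.55, with which the median would be that of YGP1 (-0.31). PDR12, HAA1 and SPI1 stayed called with any 1 of the 10 arrays left out. Without hydrolysate 18 h replicate 2, however, 6 members were called, TPO2, YGP1 and HRK1 being added as lower. The share of all genes called moved in that fit too, so its count is not to be set against 61.9%. The 3′ excess of control genes, 1.23 with hydrolysate and 0.599 with sugar feed at 18 h, moved with the comparison between feeds, and its part in the result was not tested.

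**Figure D1:**
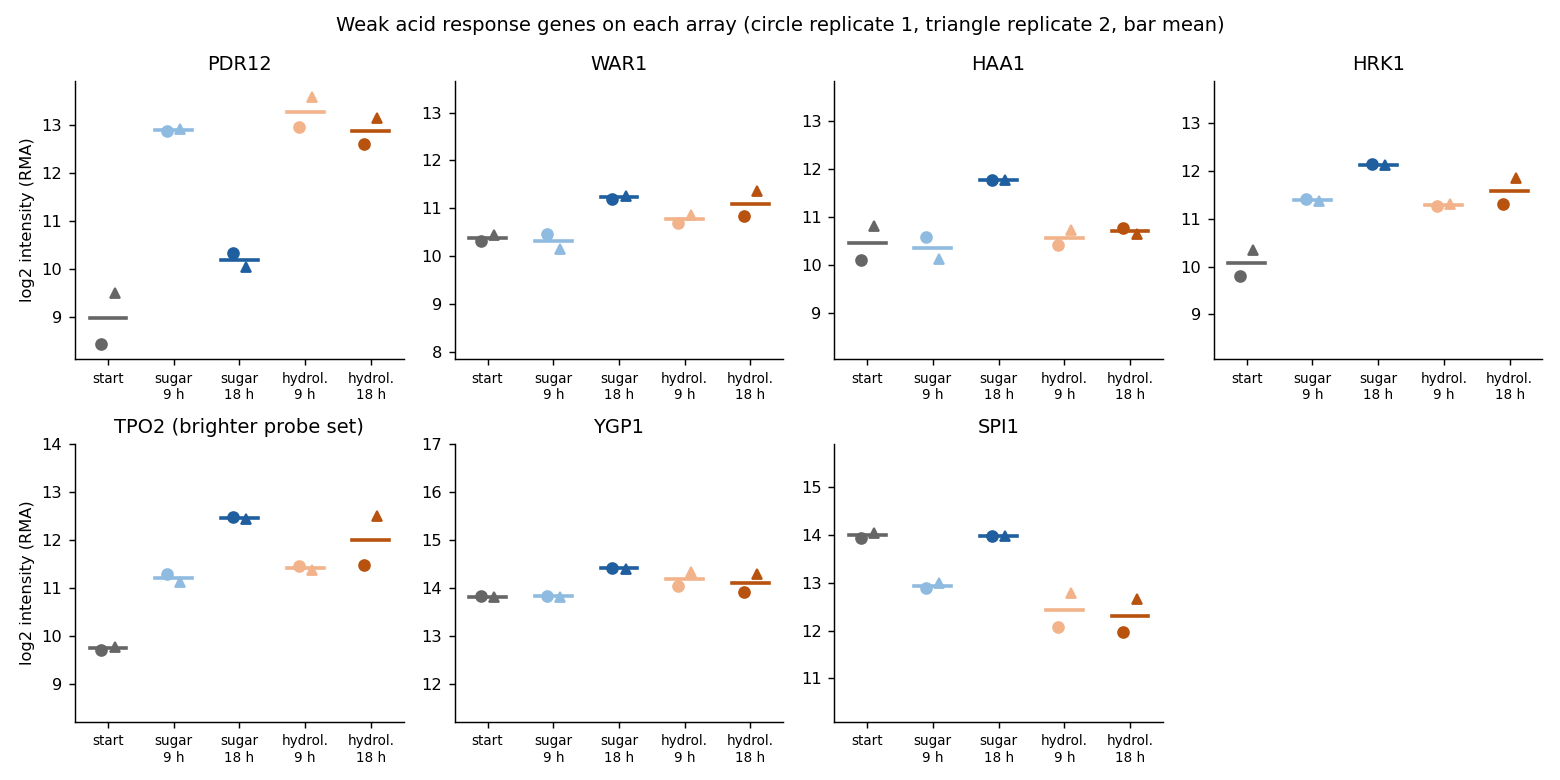
Log2 intensity (y axis) of each member on every array, by group (x axis), with a circle for replicate 1, a triangle for replicate 2 and a bar for the mean. Each axis spans the same number of log2 units. PDR12 is near 9 at the start, near 13 in 3 groups and near 10 with sugar feed at 18 h, while HAA1, HRK1 and YGP1 are highest with sugar feed at 18 h.

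PDR12 had the widest range of the members, 5.15 log2 units (YPL058C, chromosome XVI, 445842 to 450377, minus strand, R64 build). At the start its log2 intensity was 8.44 and 9.49 in the 2 replicates. With sugar feed it was 12.88 and 12.91 at 9 h and 10.33 and 10.05 at 18 h. With hydrolysate it was 12.97 and 13.60 at 9 h and 12.62 and 13.15 at 18 h. The 3 groups of either feed at 9 h and hydrolysate at 18 h were thus high, the start was lowest, and both arrays of sugar feed at 18 h lay between. In the order of group means, hydrolysate at 18 h and sugar feed at 9 h overlapped (12.88 and 12.90). PDR12 was 6.46-fold higher with hydrolysate than with sugar feed at 18 h (log2 difference 2.69, SE 0.35, adjusted p = 0.000327). At 9 h the difference was 0.38 (95% interval -0.41 to 1.18, adjusted p = 0.46). The difference between the feeds grew by 2.31 on the log2 scale from 9 h to 18 h (SE 0.49, adjusted p = 0.0124). Without sugar feed 18 h replicate 2 this growth was 2.17, with an adjusted p of 0.0505. In cultures measured whole, fewer cells expressing a gene and less RNA per cell cannot be told apart.

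The courses were then compared within each feed. With sugar feed PDR12 fell 6.54-fold from 9 h to 18 h (log2 difference -2.71, SE 0.35, adjusted p = 0.000273). With hydrolysate the change over the same interval was -0.40 (95% interval -1.20 to 0.39, adjusted p = 0.392). Both comparisons use arrays that also enter the comparisons between feeds. The authors' deposited table sets the same arrays against each other by another test, which gives small differences a t of 0. By that test PDR12 alone among the members was called at the later time (adjusted p = 0.0251), and none at 9 h. Of the 5654 genes, it called 305 at the later time and 25 at 9 h.

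WAR1, the activator of PDR12, changed little beside its target (YML076C, chromosome XIII, 112513 to 115347, minus strand). Its values were 10.31 and 10.44 at the start, 10.46 and 10.16 with sugar feed at 9 h and 11.20 and 11.26 with sugar feed at 18 h. With hydrolysate they were 10.71 and 10.86 at 9 h and 10.85 and 11.35 at 18 h. Both hydrolysate arrays exceeded both sugar arrays at 9 h, and the feeds overlapped at 18 h. The feed difference was 0.47 at 9 h (adjusted p = 0.12) and -0.13 at 18 h (95% interval -0.56 to 0.30, adjusted p = 0.561). WAR1 rose with sugar feed from 9 h to 18 h (log2 difference 0.92, SE 0.19, adjusted p = 0.00301), over the interval in which PDR12 fell. With hydrolysate its change was 0.32 (adjusted p = 0.219).

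HAA1, the other activator, was lower with hydrolysate at 18 h (YPR008W, chromosome XVI, 573018 to 575102, plus strand). It was 10.10 and 10.82 at the start, 10.59 and 10.13 with sugar feed at 9 h and 11.77 and 11.78 with sugar feed at 18 h. With hydrolysate it was 10.41 and 10.73 at 9 h and 10.77 and 10.65 at 18 h. Both arrays of sugar feed at 18 h stood above all the others, and the neighbours among the other 4 groups overlapped. HAA1 was 2.10-fold lower with hydrolysate than with sugar feed at 18 h (log2 difference -1.07, SE 0.25, adjusted p = 0.00584). With sugar feed it rose 2.67-fold from 9 h to 18 h (log2 difference 1.42, adjusted p = 0.00138), and with hydrolysate the change was 0.14 (95% interval -0.43 to 0.71). The feed difference moved by -1.28 from 9 h to 18 h (SE 0.35, adjusted p = 0.03). That last call was lost, with adjusted p of up to 0.11, without any 1 of hydrolysate 9 h replicate 2, either hydrolysate 18 h array, sugar feed 9 h replicate 2 or either sugar feed 18 h array.

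HRK1 encodes a protein kinase that activates the plasma membrane proton pump Pma1 (YOR267C, chromosome XV, 822588 to 824867, minus strand). Its values were 9.81 and 10.34 at the start, 11.40 and 11.37 with sugar feed at 9 h and 12.13 and 12.12 with sugar feed at 18 h. With hydrolysate they were 11.27 and 11.30 at 9 h and 11.31 and 11.85 at 18 h. The start was lowest and sugar feed at 18 h highest, with no overlap with the other groups. The feed difference at 18 h was -0.55 (SE 0.22), which missed the threshold (adjusted p = 0.0536). It was called without hydrolysate 18 h replicate 2 (-0.82, adjusted p = 0.0191) and without either start array (adjusted p = 0.0281). At 9 h it was -0.10 (95% interval -0.59 to 0.40).

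SPI1 encodes a cell wall protein held by a lipid anchor (YER150W, chromosome V, 468370 to 468816, plus strand). Its level was 13.94 and 14.03 at the start, 12.89 and 12.98 with sugar feed at 9 h and 13.98 and 13.97 with sugar feed at 18 h. With hydrolysate it was 12.08 and 12.79 at 9 h and 11.96 and 12.65 at 18 h. All 4 hydrolysate arrays lay below all sugar feed and start arrays. At 18 h SPI1 was 3.17-fold lower with hydrolysate than with sugar feed (log2 difference -1.67, SE 0.27, adjusted p = 0.000868). At 9 h the difference was -0.50 (adjusted p = 0.214), and it was called without hydrolysate 9 h replicate 2 (-0.86, adjusted p = 0.0464). The feed difference moved by -1.16 from 9 h to 18 h, which missed the threshold (adjusted p = 0.0508). It was called without hydrolysate 9 h replicate 1 (-1.52, adjusted p = 0.0143) and without hydrolysate 18 h replicate 2 (-1.51, adjusted p = 0.0285). With sugar feed SPI1 rose from 9 h to 18 h (log2 difference 1.04, adjusted p = 0.00932), a call lost without sugar feed 9 h replicate 1 (adjusted p = 0.0504).

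YGP1 encodes a secreted glycoprotein made when nutrients run short (YNL160W, chromosome XIV, 336545 to 337609, plus strand). It had the narrowest range of the members, 0.61 log2 units. The start gave 13.82 and 13.80, sugar feed 13.83 and 13.81 at 9 h and 14.41 and 14.40 at 18 h. Hydrolysate gave 14.03 and 14.32 at 9 h and 13.90 and 14.29 at 18 h. Hydrolysate arrays were thus above the sugar feed arrays at 9 h and below them at 18 h. The differences were 0.35 (adjusted p = 0.159) and -0.31 (adjusted p = 0.127), and the shift between them was -0.66 (adjusted p = 0.0628). That shift was called without hydrolysate 9 h replicate 1 (adjusted p = 0.0313) and without hydrolysate 18 h replicate 2 (adjusted p = 0.0409). Without the latter array the difference at 18 h was called too (-0.50, adjusted p = 0.0465).

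**Figure D2:**
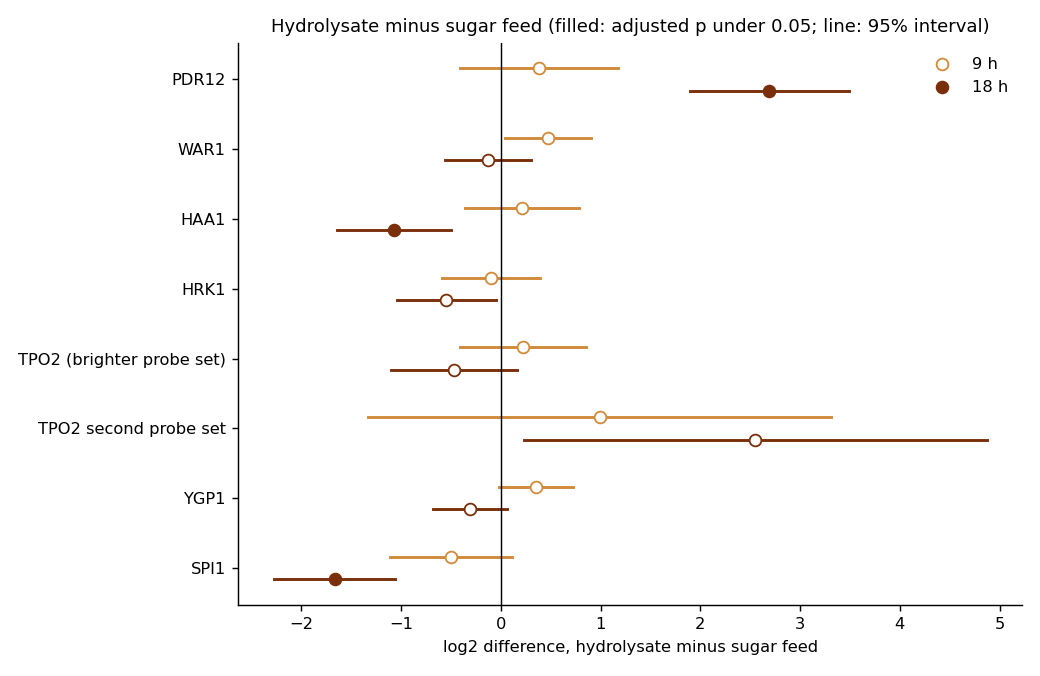
Log2 difference of hydrolysate minus sugar feed (x axis) for each member and the second TPO2 probe set (y axis), with 95% intervals, at 9 h and 18 h. Filled points were called at an adjusted p under 0.05. Only PDR12 (2.69), HAA1 (-1.07) and SPI1 (-1.67) at 18 h are filled.

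TPO2 encodes a plasma membrane exporter of polyamines. The gene (YGR138C, chromosome VII, 763762 to 765606, minus strand) has 2 probe sets on the array. The brighter one, used throughout unless stated, carries a name suffix that the manufacturer gives to probes matching more than 1 transcript, and no position in the authors' deposited table. Its values were 9.71 and 9.77 at the start, 11.28 and 11.11 with sugar feed at 9 h and 12.47 and 12.44 with sugar feed at 18 h. With hydrolysate they were 11.46 and 11.37 at 9 h and 11.48 and 12.50 at 18 h. The start arrays were lowest, and the hydrolysate arrays at 18 h spread from the 9 h level to that of sugar feed at 18 h. The feed difference was 0.22 at 9 h (adjusted p = 0.611) and -0.47 at 18 h (95% interval -1.10 to 0.16, adjusted p = 0.168). The latter was called without hydrolysate 18 h replicate 2 (-0.98, adjusted p = 0.00281), and without hydrolysate 18 h replicate 1 it was 0.04 (adjusted p = 0.845).

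The second TPO2 probe set gave another pattern. It read 8.28 and 8.10 at the start, 8.35 and 8.52 with sugar feed at 9 h and 7.79 and 7.20 with sugar feed at 18 h. With hydrolysate it read 9.69 and 9.16 at 9 h and 8.02 and 12.08 at 18 h. Here sugar feed at 18 h was lowest, and hydrolysate 18 h replicate 2 stood far above every other array. Its feed difference at 18 h was 2.55 (95% interval 0.23 to 4.87, adjusted p = 0.0555), opposite in sign to that of the brighter probe set. From 9 h to 18 h with sugar feed it changed by -0.94 (95% interval -3.26 to 1.38, adjusted p = 0.456), where the brighter probe set rose by 1.26 (SE 0.28, adjusted p = 0.00437). Which of them reads TPO2 alone was not tested, so no direction between feeds is given for this gene.

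**Figure D3:**
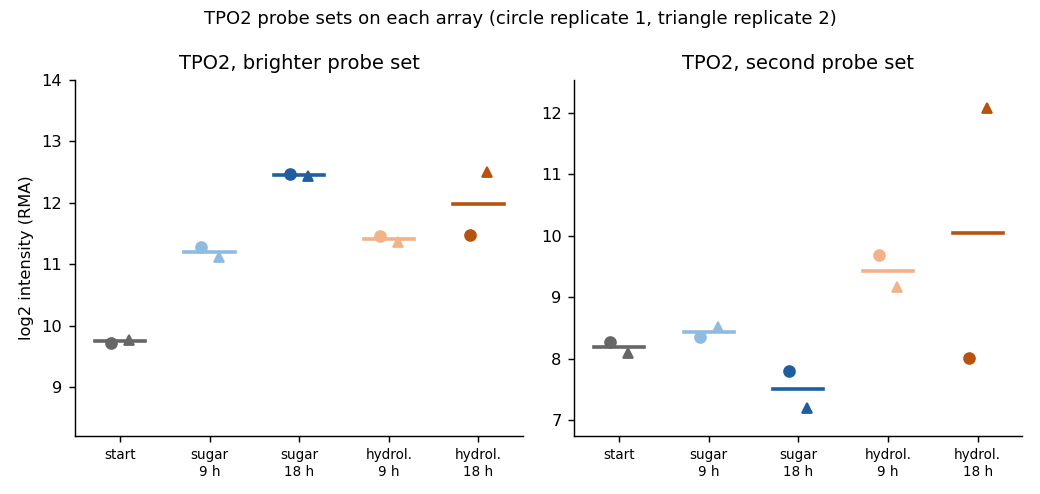
Log2 intensity (y axis) of the brighter and the second TPO2 probe set on each array, by group (x axis), with a circle for replicate 1, a triangle for replicate 2 and a bar for the mean. The brighter probe set is lowest at the start and highest at 18 h. The second is lowest with sugar feed at 18 h and reaches 12.08 on 1 hydrolysate array.

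Across time the members moved with sugar feed and not detectably with hydrolysate. From 9 h to 18 h with sugar feed all 7 were called, 6 higher and PDR12 lower, while 58.9% of all genes were called (31.9% higher and 27.0% lower). TPO2 counts here by its brighter probe set. With its second probe set, or with the mean of both, 5 members were higher and 1 lower. The members' median log2 difference was 0.92, beside 0.08 for all genes. HRK1 rose by 0.74 (adjusted p = 0.0165) and YGP1 by 0.58 (adjusted p = 0.0135). The count was 7 without a start or hydrolysate array, 4 without sugar feed 9 h replicate 1 and 5 without any 1 of the other 3 sugar feed arrays. The members lost were YGP1 and HRK1 each time, and SPI1 without sugar feed 9 h replicate 1. YGP1 was also lost with spike-in scaling (0.48, adjusted p = 0.149). From 9 h to 18 h with hydrolysate 0 members were called by limma, against 35.2% of all genes (18.0% higher and 17.1% lower), and 0 had an unadjusted p under 0.05. TPO2 was called without hydrolysate 18 h replicate 1 (1.08, adjusted p = 0.00507). The test of the difference between these courses is the change of the feed difference from 9 h to 18 h. It called 2 of 7 members, PDR12 and HAA1, against 27.4% of all genes (14.3% higher and 13.1% lower). That count was 4 without hydrolysate 9 h replicate 1, 5 without hydrolysate 18 h replicate 2, 0 without sugar feed 18 h replicate 2, and 1 without hydrolysate 9 h replicate 2, hydrolysate 18 h replicate 1, sugar feed 9 h replicate 2 or sugar feed 18 h replicate 1. The share of all genes called moved with the array left out as well, here and for the sugar feed over time. Counts from those fits are therefore not to be set against 27.4% or 58.9%. For the other 5 members a difference between the courses was not shown. The 3′ excess of control genes changed by group as well, from 0.669 to 0.599 with sugar feed and from 0.96 to 1.23 with hydrolysate, and its part in these results was not tested.

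**Figure D4:**
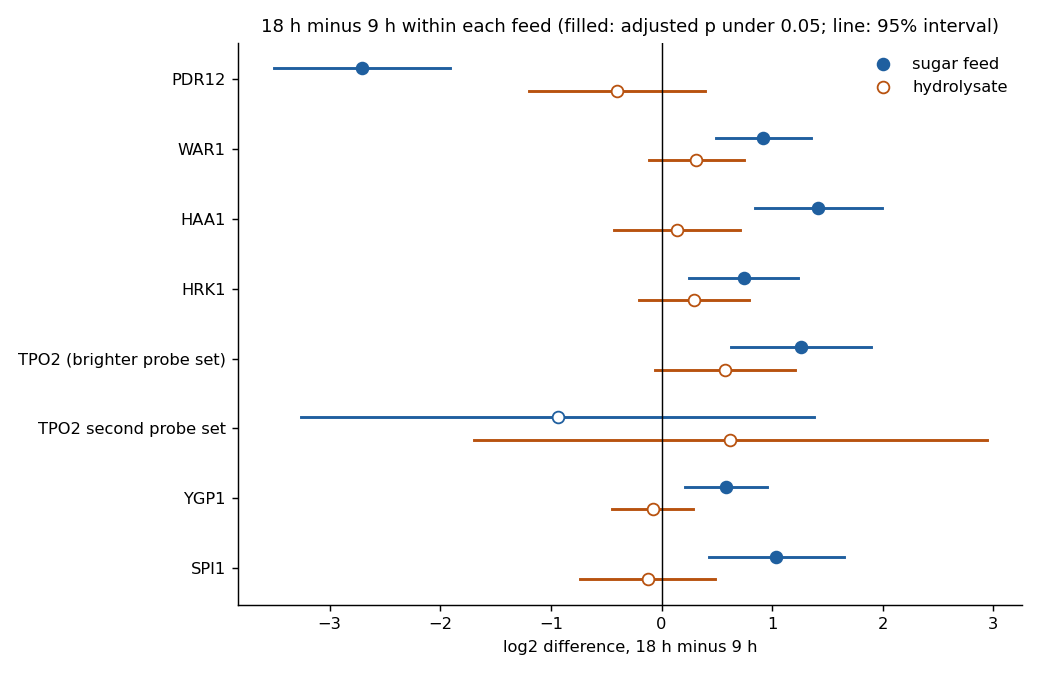
Log2 difference of 18 h minus 9 h (x axis) within the sugar feed and within the hydrolysate feed for each member and the second TPO2 probe set (y axis), with 95% intervals. Filled points were called at an adjusted p under 0.05. With sugar feed PDR12 lies at -2.71 and the other 6 members between 0.58 and 1.42, all filled, and with hydrolysate no point is filled.

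Against the start of the feed, PDR12, HRK1 and, on its brighter probe set, TPO2 were higher in all 4 fed groups. The 4 comparisons share the start arrays. With hydrolysate 4 members were called at 9 h, 3 higher and 1 lower, against 62.7% of all genes (33.6% higher and 29.1% lower), and 5 at 18 h, 4 higher and 1 lower, against 55.4% (33.2% and 22.2%). With sugar feed 4 were called at 9 h, 3 higher and 1 lower, against 66.2% (33.9% and 32.2%), and 6 at 18 h, all higher, against 66.5% (36.8% and 29.7%). TPO2 counts here by its brighter probe set. With its second probe set, 2 members were higher at 9 h and 3 at 18 h with hydrolysate. With sugar feed they were then 2 at 9 h and 5 at 18 h. PDR12 was 19.9-fold above the start with hydrolysate at 9 h and 15.1-fold at 18 h (adjusted p = 2.12e-05 and 7.31e-05). With sugar feed it was 15.3-fold above at 9 h and 2.33-fold at 18 h (adjusted p = 2.72e-05 and 0.0132). The last of these calls was lost without start replicate 1 (0.70, adjusted p = 0.084) or sugar feed 18 h replicate 1 (1.08, adjusted p = 0.0736).

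TPO2 was 2.75-fold (sugar feed, 9 h) to 6.57-fold (sugar feed, 18 h) above the start on its brighter probe set (the second, at -0.69 to 1.86 on the log2 scale, was not called), and HRK1 2.32-fold (hydrolysate, 9 h) to 4.16-fold (sugar feed, 18 h). WAR1 was higher at 18 h with either feed (0.72, adjusted p = 0.0113 with hydrolysate, and 0.85, adjusted p = 0.00386 with sugar feed). The hydrolysate call was lost without start replicate 1 (adjusted p = 0.0509) or hydrolysate 18 h replicate 2 (adjusted p = 0.0807). HAA1 (1.32, adjusted p = 0.0017) and YGP1 (0.59, adjusted p = 0.011) were called with sugar feed at 18 h alone, YGP1 not without either of that group's arrays (adjusted p = 0.0554 and 0.0517). SPI1 was lower than at the start with hydrolysate at 9 h (-1.55, adjusted p = 0.00109) and 18 h (-1.68, adjusted p = 0.00103) and with sugar feed at 9 h (-1.05, adjusted p = 0.00774). With sugar feed at 18 h it was back near the start level (-0.01, 95% interval -0.62 to 0.60).

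Directions against the start hold relative to the array as a whole. With each array scaled to its spike-in controls, the median log2 difference of all genes against the start was 1.05 to 1.28, where it had been between -0.0049 and 0.0991. On that scale 6 members were higher and 0 lower with hydrolysate at 9 h, against 79.7% of all genes called. With hydrolysate at 18 h the counts were 6 and 1, against 75%. With sugar feed they were 6 and 0 at 9 h, against 78.2%, and 7 and 0 at 18 h, against 79.1%. SPI1 then differed from the start by -0.31 with hydrolysate at 9 h (not called), by 0.22 with sugar feed at 9 h (not called) and by 1.16 with sugar feed at 18 h (adjusted p = 0.00342). The median log2 difference of all genes between the feeds at 18 h was then -0.21, and PDR12, HAA1 and SPI1 kept their directions and calls there, with HRK1 added as lower (-0.77, adjusted p = 0.0194).

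For each member the 3 genes with the nearest course over the 10 arrays were taken, by the root mean square difference of log2 values after each gene was centred on its own mean. None of the 7 had another of them among its nearest. With 3 genes kept of 5451 compared, this does not show how alike the members' courses are. The distances are not scaled to a gene's own spread. That spread was 1.76 for PDR12 and 0.25 (YGP1) to 0.95 (TPO2) for the other members. The genes nearest to PDR12 were ERG3, a sterol desaturase gene, at 0.58, the ammonium permease gene MEP3 at 0.62 and the ribosomal protein gene RPL31B at 0.64. For WAR1 they were NOT3 (0.14), CHK1 and SLN1, and for HAA1 they were BCK2 (0.17), AKL1 and NAR1. HRK1 was nearest to SIS1 (0.13), GRC3 and RIM8, SPI1 to YIM1 (0.18), YIL152W and TPK2, and YGP1 to TMA64 (0.12), ARP5 and AHP1. TPO2 was nearest to TPH3 (0.24), IZH1 and PMD1. These are descriptions over arrays of the same 5 groups.

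Of 16 other genes linked to Haa1, 8 were higher and 0 lower with hydrolysate at 18 h, where HAA1 itself and SPI1 were lower, with a median log2 difference of 0.52 beside 0.01 for all genes. The share called, 8 of 16, lay below the 61.9% of all genes called at 18 h (31.2% higher and 30.8% lower). PPN2 encodes a vacuolar polyphosphatase. Its values were 7.64 and 7.34 with sugar feed and 10.28 and 10.70 with hydrolysate at 18 h, an 8.01-fold difference (log2 3.00, adjusted p = 0.000133). COM2, a zinc finger regulator gene, was 5.14-fold higher (2.36, adjusted p = 0.000888). ICY1 was 3.16-fold higher (1.66, adjusted p = 0.000426). PHM8, a phosphatase gene that responds to phosphate starvation, was 2.73-fold higher (1.45, adjusted p = 0.000552). TOS3, INM1, SAP30 and YLR297W made up the rest, INM1 and YLR297W not without hydrolysate 18 h replicate 2 or either sugar feed 18 h array (adjusted p up to 0.153 and 0.0711). The number called ranged from 6 to 11 over the fits that left out 1 array, and with spike-in scaling 5 were higher and 0 lower. At 9 h, where 9.67% of all genes were called, 3 were higher, PPN2 (1.16, adjusted p = 0.0471), YLR297W (0.96, adjusted p = 0.024) and the kinase gene TOS3 (0.67, adjusted p = 0.027), and SUR2, a sphingolipid hydroxylase gene, was lower (-1.05, adjusted p = 0.0281). These 4 calls were all lost without hydrolysate 9 h replicate 1 or without any 1 of the 4 sugar feed arrays, and the number called ranged from 0 to 8 over the 10 fits.

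**Figure D5:**
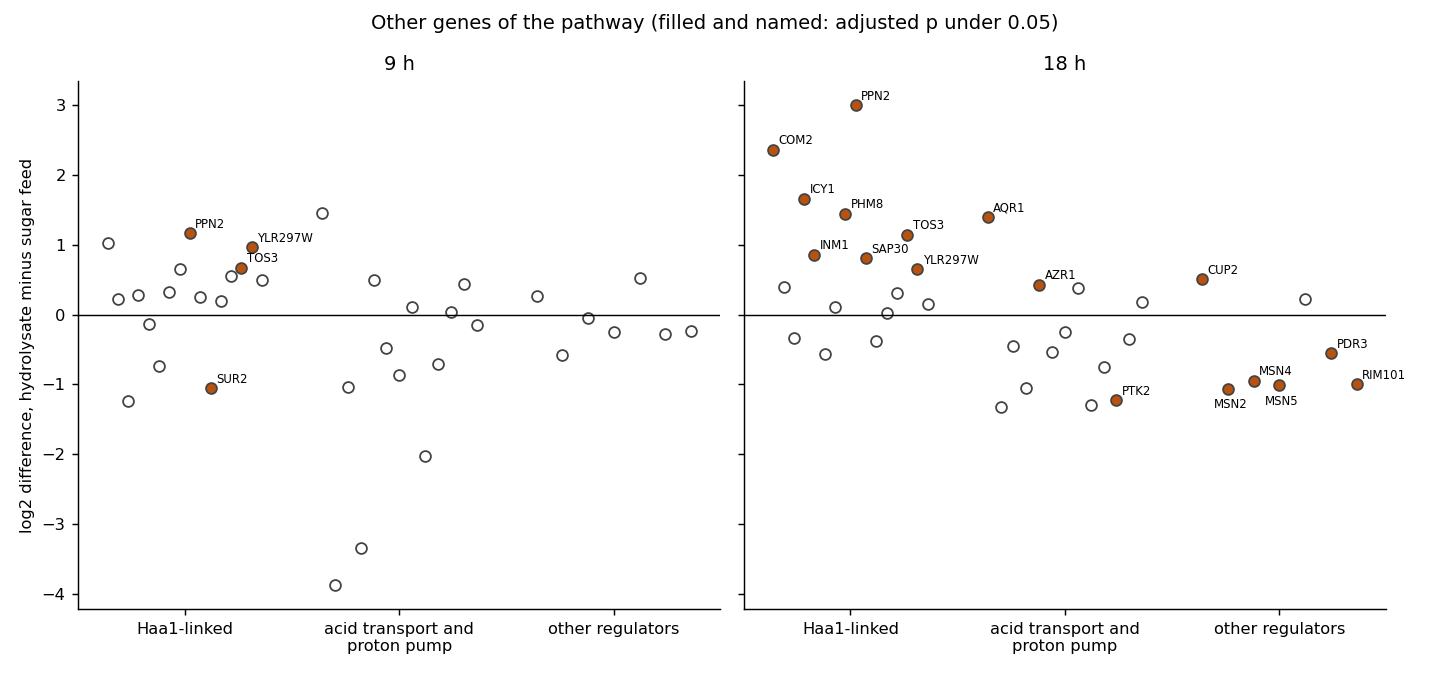
Log2 difference of hydrolysate minus sugar feed (y axis) at 9 h and 18 h for 16 Haa1-linked genes, 13 genes of acid transport and the proton pump and 7 other regulators (x axis, 1 point per gene), with called genes filled and named. At 18 h the filled Haa1-linked genes lie between 0.65 and 3.00, and 5 of the 6 filled regulators lie below 0.

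Genes of acid entry, acid export and the proton pump showed few calls in the fit of all 10 arrays. At 9 h 0 of 13 were called, with 3 higher and 4 lower at an unadjusted p under 0.05, against 9.67% of all genes called. This count depended on the arrays fitted, most of all on hydrolysate 9 h replicate 2. The hydrolysate 9 h replicates lay far apart for ATO3 (8.22 and 12.96) and PMA2 (9.68 and 12.39), as for ATO1 below. The 0 calls at 9 h thus do not show that these genes were alike between the feeds. Spike-in scaling gave 1 higher and 2 lower, against 3.91% of all genes called on that scale. At 18 h 3 of 13 were called, against 61.9% of all genes, and this count ranged from 1 to 6 with an array left out. Their median log2 difference at 18 h was -0.44, beside 0.01 for all genes. AQR1, a transporter gene that gives resistance to short-chain acids, was higher (1.40, adjusted p = 0.014), and PTK2, the gene of another kinase acting on the proton pump, was lower (-1.23, adjusted p = 0.00132). AQR1 was not called without hydrolysate 18 h replicate 1 or either sugar feed 18 h array (adjusted p up to 0.0995). AZR1, a related transporter gene, was at least 1.13-fold higher (adjusted p = 0.0438), a bound because it lay below background on the sugar feed arrays. That call was lost without hydrolysate 18 h replicate 1 or any 1 of the 4 sugar feed arrays (adjusted p up to 0.258), with a replicate block (adjusted p = 0.0555), with a trended and robust prior (adjusted p = 0.0938) and with spike-in scaling (adjusted p = 0.517). The pump gene PMA1, which Hrk1 acts on, differed by 0.11 at 9 h and 0.38 at 18 h (adjusted p = 0.778 and 0.194), and its minor relative PMA2 by -2.02 and -1.29 (adjusted p = 0.0831 and 0.127). ATO1, an acetate transporter gene, read 7.65 and 12.52 on the hydrolysate arrays at 9 h and 14.01 and 13.92 on the sugar feed arrays, a difference of -3.88 that was not called (adjusted p = 0.0698). Without hydrolysate 9 h replicate 1 it was -1.44 and without replicate 2 it was -6.32, both called.

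Of 7 other regulators of acid and general stress, 0 were called at 9 h (1 without hydrolysate 9 h replicate 2), where 1 was higher and 1 lower at an unadjusted p under 0.05, and 6 at 18 h (5 or 6 with an array left out), with a median log2 difference of -0.95 at 18 h. Of all genes, 9.67% were called at 9 h and 61.9% at 18 h, 30.8% as lower. At 18 h 5 were lower with hydrolysate, MSN2 (-1.06, adjusted p = 0.00142), MSN5 (-1.01, adjusted p = 0.00032), RIM101 (-1.001, adjusted p = 0.00109), MSN4 (-0.95, adjusted p = 0.00165) and PDR3 (-0.55, adjusted p = 0.00667). Msn2 and Msn4 are the general stress activators, Msn5 a nuclear export receptor that carries stress regulators, and Rim101 the regulator of the response to alkaline pH. CUP2, a copper-sensing relative of HAA1, was higher (0.50, adjusted p = 0.0113), though not without hydrolysate 18 h replicate 1 or sugar feed 18 h replicate 1 (adjusted p up to 0.0823). PDR3 was not called without sugar feed 18 h replicate 2 (adjusted p = 0.0513). All 7 rose with sugar feed from 9 h to 18 h, by 0.50 (MSN4) to 1.14 (CUP2), where 31.9% of all genes were called higher. MSN2 and MSN4 were not called there without 1 of several arrays, each sugar feed 18 h array and sugar feed 9 h replicate 2 among them (adjusted p up to 0.205), and 3 of the 7 were called with spike-in scaling.

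Values of close relatives of the members are set beside theirs. SNQ2, a drug exporter of the same family as PDR12, read 12.85 and 12.83 with hydrolysate and 11.80 and 11.31 with sugar feed at 9 h, where it was 2.43-fold higher (adjusted p = 0.0161). That call was lost without hydrolysate 9 h replicate 1 or sugar feed 9 h replicate 2 (adjusted p up to 0.0922). At 18 h SNQ2 differed by -0.48 (adjusted p = 0.0667). SED1, a cell wall protein gene related to SPI1, was lower at 18 h (-0.63, adjusted p = 0.0129), a call lost without hydrolysate 18 h replicate 1 or sugar feed 18 h replicate 1 (adjusted p up to 0.0718), and differed by -0.51 at 9 h (adjusted p = 0.0878). SPS100, related to YGP1, differed by -3.58 at 9 h and -2.08 at 18 h without being called (adjusted p = 0.105 and 0.204). Its hydrolysate arrays at 9 h read 6.90 and 11.85, and the difference at 9 h was called without the second of them (-6.06, adjusted p = 0.00265).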

How the data were processed

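RNA of 10 cultures in 5 groups was measured on 3′ expression arrays. The log2 intensities deposited by the authors were made by RMA; the submitters' processing notes name limma 3.52.4, affy 1.74.0 and R 4.2.1. The authors' deposited table also gives log2 differences, a t and a call score and p-values for each feed comparison. It heads the later time 17 h where the labels give 18 h, and its log2 differences matched those of the 18 h arrays within 9.44e-14. It also has 10 per-array columns, which were not used, and 3 emptied lines.

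Of 5703 named S. cerevisiae probe sets, 5654 genes were kept, with the brightest probe set for 47 genes that had several. The comparisons used lmFit and eBayes (R 4.3.3 with limma 3.58.1, 5 residual and 3.49 prior degrees of freedom), with 9 comparisons and Benjamini-Hochberg adjustment over all genes. The scripts were tested on simulated data. 1 gene chosen by the rule is not reported here. The other members were named, with the 3 nearest genes of each, up to 4 called genes per list with the largest differences between feeds, and PMA1, PMA2 and 4 relatives; a few others were named after their values were seen. Members and lists were chosen with earlier results of these data known. Same-numbered replicates were not treated as pairs, since their deviations from group means did not correlate throughout (-0.20 to 0.13). Alternatives covered the prior, filters, arrays fitted, blocks, scaling, a 2-fold minimum, probe sets, leaving out each array and the authors' calls. With 2 arrays a group, the number of arrays limits the precision. Gene positions are those of the authors' table, and matched the RefSeq R64 gene table for the members.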

Additional observations from a re-analysis of the deposited data

Results flagged for a closer look

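For these genes the difference between feeds changed from 9 h to 18 h by the test of that change in limma. Among the members it grew by 2.31 on the log2 scale for PDR12 (adjusted p = 0.0124) and moved by -1.28 for HAA1 (adjusted p = 0.03). Among the other genes of the pathway it moved by 1.84 for PPN2, 1.39 for ICY1, -0.78 for TPO1, -1.26 for PTK2, -0.89 for MSN4, -0.77 for RIM101, -0.76 for MSN5 and -1.76 for SNQ2. They were 2 of 16 Haa1-linked genes and 2 of 13 genes of acid transport and the proton pump. The rest were 3 of 7 other regulators and 1 of 4 relatives. Of all genes, 27.4% were called for this change. With an array left out, SNQ2 stayed called in all 10 fits (-2.00 to -1.51, adjusted p up to 0.027). The others were lost in some fits, with adjusted p of up to 0.0505 for PDR12, 0.11 for HAA1, 0.0658 for PPN2, 0.0655 for ICY1, 0.0829 for TPO1, 0.0739 for PTK2, 0.104 for MSN4, 0.139 for RIM101 and 0.0745 for MSN5.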

How the results depend on the processing

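Over 12 settings other than leaving out an array, 655 of 700 member values kept direction and side of the threshold. Much of this was fixed beforehand. Settings of the prior, the filter, the arrays compared, the blocks and the 2-fold minimum leave the log2 differences as they are. No direction could turn there, and the probe set settings change the log2 values of TPO2 alone. The authors' calls are not among the 12. The number of members whose change of the feed difference was called was 4 with a trended and robust prior, against 28% of all genes. With sugar feed from 9 h to 18 h, 4 members were called and changed at least 2-fold, against 30% of all genes. The authors' calls at the later time held 1 member, among 305 of all genes. Leaving out an array, the members called ranged from 0 to 1 (feeds at 9 h), 3 to 6 (feeds at 18 h), 0 to 5 (change), 4 to 5 at either time (hydrolysate against start), 4 and 4 to 6 (sugar feed at 9 h and 18 h against start), 0 to 1 (hydrolysate over time) and 4 to 7 (sugar feed over time). The share of all genes called moved in those fits too. Directions turned for the following, and the cause was not tested. With spike-in scaling against the start, WAR1 was 1.20, HAA1 1.17 and SPI1 0.22 (sugar feed, 9 h) and SPI1 1.16 (sugar feed, 18 h), and HAA1 over time with hydrolysate was -0.16. Quantile normalization gave 0.090 for SPI1 with sugar feed at 18 h against start, and median centring -0.024 for YGP1 with sugar feed at 9 h against start. The mean of the TPO2 probe sets gave 1.04 between feeds at 18 h and 0.44 for the change, and the second probe set, chosen after seeing the data, 2.55, 1.56, -0.69 (sugar feed at 18 h against start) and -0.94 (sugar feed over time). Leaving out an array, values spanned 0 for HAA1 (-0.018 to 0.44) between feeds at 9 h, and for WAR1 (-0.38 to 0.12) and TPO2 (-0.98 to 0.042) at 18 h. Against the start, they did so for HAA1 with hydrolysate at 9 h (-0.25 to 0.48) and 18 h (-0.11 to 0.61). With sugar feed at 9 h against start they did so for HAA1 (-0.46 to 0.26), WAR1 (-0.22 to 0.083) and YGP1 (-9e-04 to 0.021). With sugar feed at 18 h against start they did so for SPI1 (-0.057 to 0.037). With hydrolysate over time, HAA1 (-0.021 to 0.30), YGP1 (-0.27 to 0.11) and SPI1 (-0.48 to 0.23) did so. A replicate block was also fitted, though the labels do not say whether same-numbered arrays came from 1 reactor (correlations of deviations -0.20 to 0.13). It gave 0, 4 and 3 members called (feeds at 9 h, feeds at 18 h, change). The shares of all genes called were 5.96%, 60.1% and 23.5%. HRK1 at 18 h (adjusted p = 0.0431) and SPI1 for the change (adjusted p = 0.0326) were added. Crossed numbers at 9 h, tried after seeing the data, gave 0 members, against 11.2% of all genes.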
